A study of Mus musculus with 20 samples.

Results

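This account compares the g depot with the sc depot of wild-type mice, on 10 of the 20 arrays of the series: 5 arrays titled g... WT and 5 titled sc...WT. The arrays were taken by their titles, and the comparison covers every gene on them, 19505 in all. The labels give the tissue as adipose tissue marked sc or g and describe the material as mouse adipocytes that came from adipose tissue and were differentiated in culture. They do not spell out sc and g, which are read here as the subcutaneous and the gonadal depot, the names commonly used for fat under the skin and for the visceral fat beside the gonads. The genotype label of all 10 arrays is Wild-type. The other 10 arrays carry the label Olfm2 knockout, with 5 arrays of each depot, and entered the model for the estimate of spread and one comparison of their own. The series' design text writes the sc arrays as scPKP2, a name found in no sample label, so the genotype of the sc knockout arrays rests on their sample labels alone. The sources used here give no strain, sex, age, diet or culture times, nor whether the arrays of a group came from separate animals or cultures. The p-values below therefore measure the spread between these arrays, which may be technical. Each number in the wild-type titles occurs once in each depot, so that the arrays can be paired by number, but nothing in the labels says that a number stands for a mouse.

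Fat depots differ in origin and in use. Subcutaneous fat forms under the skin from mesenchyme of the trunk and limbs, whereas gonadal fat is a visceral depot that grows within the abdomen and is covered by mesothelium, a single sheet of flat epithelial cells. Adipocytes of the depots keep the expression of developmental patterning genes, such as HOX and T-box genes, that mark where in the embryo the tissue arose. In mice, subcutaneous fat more readily turns on the thermogenic programme of beige fat, and gonadal fat gathers more macrophages when animals become obese.

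Each value is a log2 signal, so that a difference of 1 is a doubling of signal. A difference is given as g minus sc with its standard error (SE). A gene was called where limma's moderated test gave a Benjamini-Hochberg adjusted p under 0.05 over all 19505 genes. Array medians lay between 5.78 and 5.92, and the median of the 5222 negative control probes between 4.45 and 4.84. A group mean under 4.68, the mean of that control median over the wild-type arrays, is called dim below, and a difference from a dim group has no exact fold. Correlations between arrays over all genes were 0.960 to 0.992 within a depot and 0.946 to 0.980 between depots.

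The labelled cell type was checked against marker genes first, with a mixed outcome. Adipoq, which encodes the adipocyte hormone adiponectin, was near the top of the signal range on all arrays, from 12.05 to 12.77. Transcripts of other cell types were present as well: Csf1r, the receptor for the macrophage growth factor CSF1, stood at 9.11 to 10.79 and Gpihbp1, which carries lipoprotein lipase in capillary endothelium, at 7.41 to 9.48. Whether the RNA came from cultured adipocytes alone, as labelled, cannot be settled from these values. Marker lists of other tissues set some arrays apart. The mean level of 22 skeletal muscle markers was 10.37 on array sc286WT and 8.41 on sc307WT, against 5.23 to 5.75 on the other 8. The mean of 21 lymphocyte markers was 7.98 on sc286WT, against 5.41 to 5.66 on the other sc arrays and 5.85 to 6.84 on the g arrays. The mean of 18 hepatocyte markers was 7.83 on g286 WT and 9.04 on g308 WT, against 5.13 to 5.88 on the other 8. Array sc286WT thus stands apart in both muscle and lymphocyte transcripts, and for some results a value without it is given too. Lists for mammary and skin epithelium, the gonadal tract and red blood cells had no called member in limma's test, with 5 of 25, 2 of 21 and 1 of 4 members at an unadjusted p under 0.05. The Y-linked genes Uty, Kdm5d and Eif2s3y were measured at 7.98, 6.46 and 8.54 in g and 7.67, 6.16 and 8.78 in sc (means, n = 5). None of the 3 was called, but 2 were higher in g and 1 in sc at an unadjusted p under 0.05 by limma. For 2 of the 3 the arrays of the depots did not overlap.

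**Figure D1:**
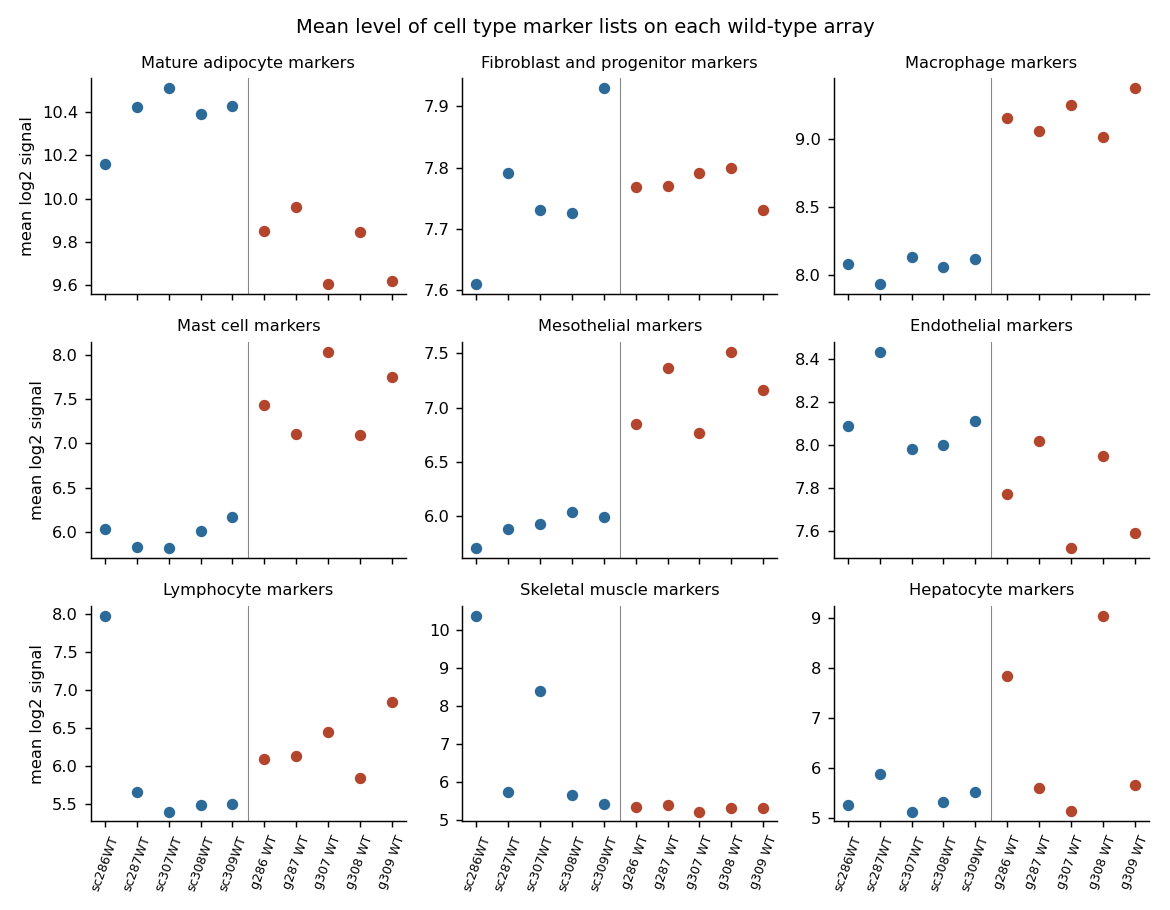
Mean log2 signal of 9 marker lists on each of the 10 wild-type arrays (x axis, array titles; sc arrays blue, g arrays red; y axis, mean log2 signal over the measured members). Macrophage, mast cell and mesothelial means are higher on all g arrays, adipocyte means on all sc arrays, and skeletal muscle and lymphocyte markers are raised on sc286WT.

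The depots differed over a large part of the transcriptome. Of 19505 genes, 3468 were called (17.8%), 1814 of them higher in g (9.3%) and 1654 higher in sc (8.48%). The 5 g arrays and the 5 sc arrays did not overlap for 3137 genes (16.1%), and 2588 of the called genes were among them. The median size of a called difference was 0.54, so most calls were small: 541 called genes differed more than 2-fold and 65 more than 4-fold. The large differences were mostly on the g side, with 453 higher in g against 88 higher in sc beyond 2-fold, and 59 against 6 beyond 4-fold. The median difference over all genes was -0.04. In 3186 of the 3468 called genes the difference had the same sign in all 5 pairs of arrays with the same number. The 2588 called genes without overlap must do so under any pairing, so this count says little about the pairs. Without sc286WT the count was 3770 genes. Without the 4 arrays high in muscle or hepatocyte transcripts (sc286WT, sc307WT, g286 WT and g308 WT) it was 2103, of which 1975 were among the 3468.

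**Figure D2:**
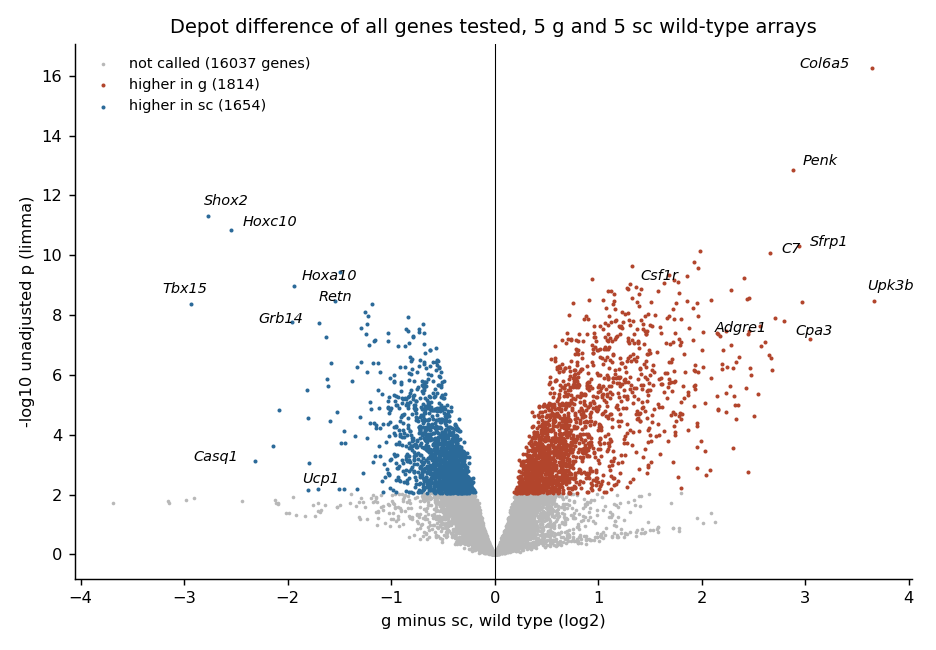
Each point is a gene, with its g minus sc difference on the x axis (log2) and -log10 of the unadjusted limma p on the y axis (red, called and higher in g; blue, called and higher in sc; grey, not called). Col6a5, at 3.64 and the smallest p, and Penk stand out on the g side, and Shox2, Hoxc10 and Tbx15 on the sc side.

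Among called genes, transcription factors that pattern the embryo gave the largest differences on the sc side. Some skeletal muscle genes differed more but were not called. Tbx15, a T-box factor of limb, trunk and skin development, had log2 signals of 8.66, 6.53, 6.52, 6.21 and 6.72 on the sc arrays, listed by rising title number, and 3.96, 4.09, 3.94, 4.11 and 3.88 on the g arrays. The groups did not overlap, the g arrays were dim throughout, and sc286WT lay far above the other sc arrays. Tbx15 fell by 2.93 in g (SE 0.30, adjusted p = 1.63e-06), and by 2.50 without sc286WT. Shox2, a homeobox factor needed for the growth of the proximal limb, read 5.68, 5.96, 6.42, 6.34 and 6.44 in sc and 3.31, 3.44, 3.56, 3.44 and 3.25 in g. All sc arrays were above all g arrays, which were dim, with a difference of -2.77 (SE 0.19, adjusted p = 3.21e-08). Lhx8, a LIM homeobox factor, read 7.51, 8.06, 7.95, 7.99 and 8.02 in sc against 6.57, 6.90, 6.49, 6.75 and 6.68 in g. Both groups were above background here, and sc was 2.34-fold higher (difference -1.23, SE 0.13, adjusted p = 3.2e-06).

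On the g side, Tcf21, a basic helix-loop-helix factor of visceral mesenchyme, read 6.16, 6.25, 6.10, 6.51 and 5.96, and in sc 4.19, 4.17, 4.33, 4.48 and 4.18. Every g array was above every sc array, and the sc arrays were dim. The difference was 1.92 (SE 0.16, adjusted p = 4.26e-07). Wt1, the Wilms tumour zinc finger factor of mesothelium and visceral fat progenitors, read 6.43, 6.62, 6.41, 6.55 and 6.48 in g and 4.39, 4.49, 5.01, 5.46 and 4.48 in sc. The g arrays lay within a narrow band while the sc arrays spread over a wider one below it, with a difference of 1.73 (SE 0.19, adjusted p = 3.62e-06) and no exact fold, as the sc mean was near the negative controls. Osr1, a zinc finger factor of intermediate mesoderm, was 2.33-fold higher in g (9.13 ± 0.44 against 7.91 ± 0.28, SD, n = 5 each, adjusted p = 0.00078). Isl1, a LIM homeobox factor, was 1.54-fold higher (5.70 ± 0.27 against 5.07 ± 0.13, adjusted p = 0.0137), with the lowest g array at 5.38 and the highest sc array at 5.22.

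The bases just before the start of some of these genes are shown because the genes move in opposite directions between the depots. Of the 14 called transcription factor genes of the patterning lists, 10 are in the RefSeq promoter table (GRCm38.p6), and Tbx15, Wt1, Osr1 and Tbx5 are named only. Each sequence below is the 250 bases before the start, 5′ to 3′ on the strand of the gene, with matches to the searched motifs in capitals. Shox2 lies on the minus strand at chr3:66981772-66982021, Lhx8 on the minus strand at chr3:154330561-154330810, Tcf21 on the minus strand at chr10:22820144-22820393 and Isl1 on the minus strand at chr13:116309689-116309938.
Shox2 (higher in sc): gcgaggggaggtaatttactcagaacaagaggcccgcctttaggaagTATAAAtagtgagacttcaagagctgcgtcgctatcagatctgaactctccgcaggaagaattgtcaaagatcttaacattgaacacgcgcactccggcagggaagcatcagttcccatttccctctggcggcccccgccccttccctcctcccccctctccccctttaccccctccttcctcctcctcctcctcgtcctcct
Lhx8 (higher in sc): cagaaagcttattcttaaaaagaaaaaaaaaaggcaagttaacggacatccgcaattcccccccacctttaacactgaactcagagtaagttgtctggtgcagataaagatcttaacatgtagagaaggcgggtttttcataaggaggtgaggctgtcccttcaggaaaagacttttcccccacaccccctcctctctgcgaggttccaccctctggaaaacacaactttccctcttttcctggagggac
Tcf21 (higher in g): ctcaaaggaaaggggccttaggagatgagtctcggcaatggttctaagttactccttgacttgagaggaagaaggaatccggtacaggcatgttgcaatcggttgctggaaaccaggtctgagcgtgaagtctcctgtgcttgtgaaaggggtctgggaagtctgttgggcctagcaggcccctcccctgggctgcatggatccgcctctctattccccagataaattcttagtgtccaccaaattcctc
Isl1 (higher in g): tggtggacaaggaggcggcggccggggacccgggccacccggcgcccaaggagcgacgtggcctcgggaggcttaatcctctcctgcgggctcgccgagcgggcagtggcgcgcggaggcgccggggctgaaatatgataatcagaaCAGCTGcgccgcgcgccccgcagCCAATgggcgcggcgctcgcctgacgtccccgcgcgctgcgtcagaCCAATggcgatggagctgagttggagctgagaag
The motifs were searched on both strands. They were the half-site of T-box factors, AGGTGTGA, the GATA factor site, AGATAAG, the homeobox core, TAATTA, and the E-box, CAGCTG. The shared site of the WT1 and EGR factors was searched as GCGTGGGNG, the core promoter box as TATAAA and the site of factor NF-Y as CCAAT. Shox2 holds 1 TATAAA, which 12.4% of all 32851 upstream sequences of this length hold. Isl1 holds 1 CAGCTG, present in 13.0% of them, and 2 copies of CCAAT, present in 33.8%. No letters matched in the Lhx8 and Tcf21 sequences, and no matches overlapped. The other motifs occur in 1.12% (AGGTGTGA), 2.74% (AGATAAG), 4.84% (TAATTA) and 1.65% (GCGTGGGNG) of the table. A match describes these letters only.

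Across the patterning lists, 8 of 25 measured genes of the subcutaneous list were higher in sc and 1 higher in g, with a median difference of -0.28. Besides the genes above, Meox2 (-0.95, SE 0.25, adjusted p = 0.0117), Irx3 (-0.88, SE 0.18, adjusted p = 0.00155) and Tbx5 (-0.58, SE 0.13, adjusted p = 0.00409) were higher in sc, the last against a dim g group. Meox2 directs somite and muscle patterning, Irx3 is an Iroquois homeobox factor and Tbx5 sets the forelimb field. Prrx2, a paired-related homeobox factor of limb mesenchyme placed on the same list, went the other way at 0.52 (SE 0.13, adjusted p = 0.00931). Of 19 genes on the visceral list, 5 were higher in g and 1 in sc (median 0.24). The 5 hold Upk3b, which is a mesothelial membrane protein and no transcription factor. The gene higher in sc was Sox6, an HMG-box factor, at -0.86 (SE 0.21, adjusted p = 0.00587), and its sc286WT value of 7.54 was the highest of all.

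HOX genes lie in 4 clusters, and their order within a cluster follows the head-to-tail axis of the embryo. Of 33 measured, 7 were called (21.2%, near the 17.8% of all genes). All 7 were higher in sc, the direction in which 8.48% of all genes were called. At an unadjusted p under 0.05 by limma there were 11 higher in sc and 0 higher in g. The median over the 33 was -0.19. Hoxc10 read 7.75, 7.79, 7.73, 7.39 and 7.57 in sc and 4.66, 5.14, 4.87, 5.58 and 5.27 in g. The groups were far apart, and sc was 5.83-fold higher (difference -2.54, SE 0.18, adjusted p = 7.02e-08). Hoxa10 read 7.06, 7.68, 7.26, 7.03 and 7.37 in sc and 5.17, 5.53, 4.96, 5.64 and 5.42 in g. Again no array overlapped, and the fold was 3.83 (difference -1.94, SE 0.18, adjusted p = 1.02e-06). Hoxc5 (-0.77, adjusted p = 0.00031) and Hoxb8 (-0.32, adjusted p = 0.00563) were lower in g by less. Hoxc9 (-0.56, adjusted p = 0.0275), Hoxc6 (-0.45, adjusted p = 0.0282) and Hoxc11 (-0.36, adjusted p = 0.0344) were near the threshold, and Hoxc11 was dim in both depots. Each of these 3 lost its call without sc307WT and without g307 WT, and the HOX count then stood at 4. Hoxc9 was also lost without sc287WT, sc308WT or g286 WT, Hoxc6 without sc287WT, sc309WT or g309 WT, and Hoxc11 without sc308WT, g287 WT or g309 WT, at adjusted p values of at most 0.0745, 0.0923 and 0.102.

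**Figure D3:**
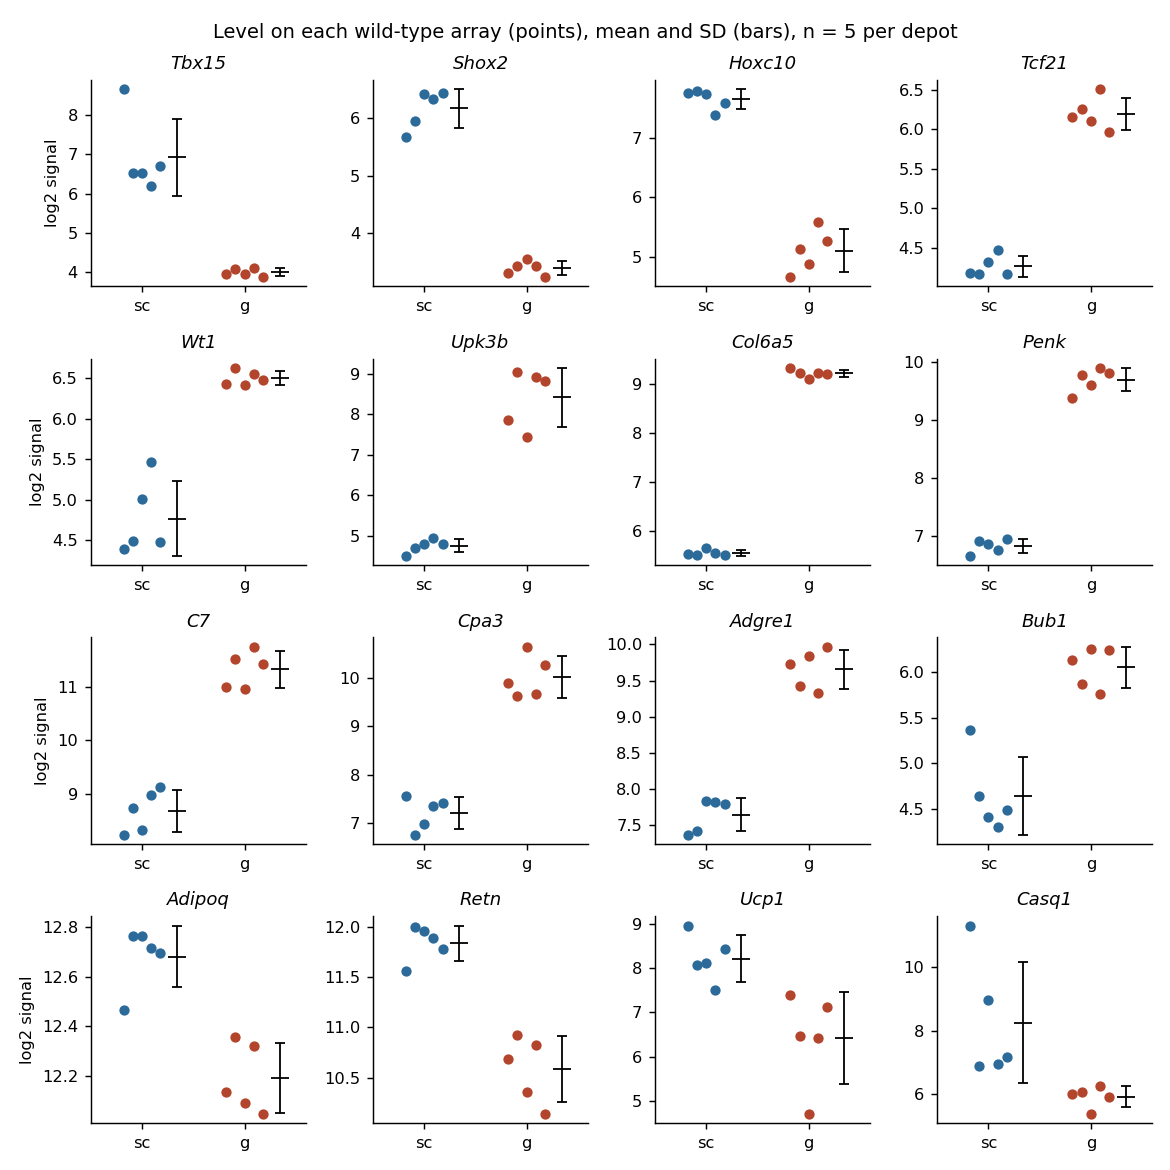
Log2 signal of 16 genes on each wild-type array (points; sc blue, g red, 5 arrays each, in order of title number), with the mean and SD as bars and a y axis of its own for each gene. The groups do not overlap for any of the 16, and sc286WT lies apart for Tbx15 and Casq1.

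Mesothelial genes were higher in g, and Upk3b had the largest difference of any called gene. Upk3b, a uroplakin that marks mesothelium, had log2 signals of 7.86, 9.05, 7.43, 8.92 and 8.82 in g and 4.51, 4.71, 4.80, 4.95 and 4.79 in sc. All g arrays stood far above the sc arrays (difference 3.67, SE 0.36, adjusted p = 1.58e-06). The sc mean of 4.75 lay within the range of the negative control medians, so no exact fold is given. Upk1b, a tetraspanin partner of the uroplakins, rose by 2.97 from a dim sc group (SE 0.30, adjusted p = 1.63e-06). Gpm6a, a membrane glycoprotein, read 7.14, 8.29, 7.01, 8.57 and 8.26 in g against 5.21 to 5.80 in sc, a 4.97-fold difference (adjusted p = 0.000181). Aldh1a2, the retinaldehyde dehydrogenase that makes retinoic acid in mesothelium, was 3.44-fold higher in g (6.98 ± 0.36 against 5.20 ± 0.20, adjusted p = 1.23e-06). Msln, which encodes mesothelin, was 1.86-fold higher (5.81 ± 0.43 against 4.91 ± 0.10, adjusted p = 0.0182), and Lrrn4 was 2.09-fold higher (adjusted p = 0.00184). Nkain4, which encodes a partner of the sodium pump, rose by 1.74 from a dim group (adjusted p = 0.00146).

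In all, 14 of 18 measured mesothelial markers were higher in g and 1, the tight junction gene Cldn15 at -0.78 (adjusted p = 0.007), was higher in sc. The median of the 18 was 1.04, and the mean of the list was 6.77 to 7.51 on the g arrays and 5.71 to 6.04 on the sc arrays. Within the g group, Upk3b, Upk1b and Gpm6a were lowest on g286 WT and g307 WT. Pkhd1l1, a large receptor-like protein and no member of the list, was also lowest on these arrays, with 6.10, 7.34, 6.01, 7.58 and 7.34 in g and 3.60 to 4.24 in sc, where it was dim (difference 3.05, SE 0.36, adjusted p = 8.48e-06). With the list mean as a covariate, 2111 genes were called. The list means of the depots do not overlap, so that fit has little to separate depot from mesothelial level.

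Matrix genes split, with a few large differences. Col6a5, which encodes the alpha-5 chain of type VI collagen, had the smallest p of all genes. Its log2 signals were 9.32, 9.21, 9.10, 9.22 and 9.20 in g and 5.54, 5.52, 5.66, 5.57 and 5.53 in sc. Both groups were tight and lay 12.5-fold apart (difference 3.64, SE 0.14, adjusted p = 1.11e-12). Its neighbour in the collagen VI family, Col6a6, read 7.60, 7.76, 7.32, 7.63 and 7.54 in g and 6.03, 5.34, 6.09, 5.63 and 6.09 in sc, a 3.33-fold excess in g (adjusted p = 7.9e-07). Fbln1, which encodes the basement membrane protein fibulin-1, was 4.27-fold higher in g (8.85 ± 0.13 against 6.75 ± 0.50, adjusted p = 1.58e-06), with sc286WT the lowest at 5.87. Fmod, for the collagen-binding proteoglycan fibromodulin, was 3.001-fold higher (adjusted p = 0.000355). Mfap4 and Fn1, for a microfibril-associated glycoprotein and fibronectin, were 2.10-fold and 1.75-fold higher (adjusted p = 0.000124 and 0.000182). Of 51 matrix genes, 11 were higher in g and 2 in sc, while the median of the 51 was -0.03. Both genes higher in sc lost their call without any of 6 arrays: sc287WT, sc307WT, sc309WT, g287 WT, g308 WT and g309 WT.

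Secreted regulators of WNT and BMP signals also differed, in both directions. Sfrp1, which binds WNT proteins and keeps them from their receptors, read 8.40, 8.70, 8.08, 8.96 and 8.60 in g and 5.04, 5.32, 5.66, 6.01 and 5.98 in sc. The lowest g array was above the highest sc array by more than the range of either group, and the fold was 7.69 (difference 2.94, SE 0.23, adjusted p = 1.97e-07). The WNT ligand gene Wnt2b (2.14-fold, adjusted p = 0.0028), the WNT co-activator gene Rspo1 (2.03-fold, adjusted p = 0.00111) and Bmper, a BMP-binding regulator (2.12-fold, adjusted p = 8.62e-06), were higher in g. Higher in sc were the ligand genes Bmp3 (1.81-fold, adjusted p = 0.00734) and Bmp6 (1.65-fold, adjusted p = 0.00122), and Apcdd1, a membrane inhibitor of WNT signalling (1.65-fold, adjusted p = 0.00137). Dkk2, an inhibitor of the WNT co-receptor LRP6, fell by 0.97 in g to a dim level (adjusted p = 0.000177). Of 43 genes on the list, 6 were higher in g and 9 in sc, with a median of -0.15. Rspo1 is also on the mesothelial list.

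Several further genes were among the largest differences in g. Penk, the precursor of the enkephalin opioid peptides, read 9.39, 9.78, 9.61, 9.90 and 9.82 in g and 6.65, 6.91, 6.85, 6.74 and 6.93 in sc. Its groups were tight and 7.37-fold apart (difference 2.88, SE 0.16, adjusted p = 1.4e-09). Cadm1, a cell adhesion molecule, was 5.93-fold higher in g (10.07 ± 0.27 against 7.51 ± 0.30, adjusted p = 4.56e-06). Sult1e1, the enzyme that inactivates estrogen by sulfation, was 5.55-fold higher in g (8.28 ± 0.61 against 5.81 ± 0.58, adjusted p = 5.79e-05), with a wide spread within both depots. Rnf128, a membrane ubiquitin ligase, and Pianp, a ligand of the myeloid receptor PILR alpha, were 6.38-fold and 5.50-fold higher in g (adjusted p = 2.25e-05 and 1.58e-06). St18, a zinc finger transcription factor, rose by 2.46 from a dim sc group (adjusted p = 5.89e-06). Glipr1, a secreted CAP family protein, was 5.66-fold higher in g (adjusted p = 0.000587). With the mean of the macrophage markers as a covariate its difference was -1.20. The macrophage means of the depots do not overlap in wild type, so that fit has little to separate depot from macrophage level.

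Genes that define the fat cell itself were lower in g. Of 35 measured markers of mature adipocytes, 29 were called, all 29 higher in sc, and all 35 differences were below 0, with a median of -0.57. At an unadjusted p under 0.05, 30 were higher in sc and 0 higher in g. In bulk RNA, fewer cells of a type and less RNA per cell cannot be told apart. Adipoq read 12.47, 12.77, 12.77, 12.71 and 12.70 in sc and 12.14, 12.36, 12.09, 12.32 and 12.05 in g. No g array reached the lowest sc array, which was sc286WT, and the fold was 1.40 (difference -0.49, SE 0.08, adjusted p = 0.000349). The master regulators of fat cell differentiation, Pparg (1.498-fold, adjusted p = 0.000198) and Cebpa (1.48-fold, adjusted p = 0.00131), were higher in sc by a like amount. Slc2a4, the insulin-regulated glucose transporter GLUT4, was 1.97-fold higher in sc (7.80 ± 0.23 against 6.82 ± 0.25, adjusted p = 5.78e-05). Klb, the co-receptor for FGF21, was 2.23-fold higher in sc (8.53 ± 0.22 against 7.37 ± 0.18, adjusted p = 8.62e-06). Retn, for the adipocyte hormone resistin, read 11.56, 12.00, 11.96, 11.89 and 11.78 in sc and 10.69, 10.92, 10.36, 10.83 and 10.14 in g. It had a 2.38-fold excess in sc with no overlap (adjusted p = 2.75e-06).

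Over the arrays, the mean of the 35 adipocyte markers was 10.16 to 10.51 in sc and 9.61 to 9.96 in g, with sc286WT the lowest of the sc arrays. The macrophage mean moved the other way, from 7.93 to 8.13 in sc to 9.01 to 9.37 in g. With the macrophage mean as a covariate, the median adipocyte difference was -0.27 and none of the 35 was called. The macrophage means of the depots do not overlap in wild type, so that fit has little to separate depot from macrophage level. Its median SE over all genes was 0.306, against 0.128 without the covariate.

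Genes of triglyceride breakdown, which include lipases, their regulators and receptors, were higher in sc. Of 15 measured, 6 of them also on the adipocyte list, 11 were higher in sc and none of the rest was called, with 13 higher in sc and 0 higher in g at an unadjusted p under 0.05 and a median of -0.59. Ces1d, a carboxylesterase of lipid droplets, had the largest difference, 2.29-fold (9.60 ± 0.33 in sc against 8.40 ± 0.25 in g, adjusted p = 0.000378). G0s2, the inhibitor of adipose triglyceride lipase, read 9.68, 9.84, 10.30, 10.02 and 9.97 in sc and 9.15, 9.19, 8.78, 9.03 and 9.12 in g, 1.87-fold apart without overlap (adjusted p = 9.49e-05). The lipase genes Lipe, for hormone-sensitive lipase, and Pnpla2, for adipose triglyceride lipase, were 1.51-fold and 1.43-fold higher in sc (adjusted p = 0.000152 and 0.00738). The lipid droplet coat genes Plin1 and Plin5 were 1.56-fold and 2.04-fold higher (adjusted p = 0.000924 and 0.000347), of which Plin5 is on the adipocyte list alone. Pck1, also of the adipocyte list, which makes the glycerol backbone for fatty acid re-esterification, was 2.21-fold higher in sc (adjusted p = 0.00119).

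Fatty acid synthesis genes moved less evenly. Of 17, 4 were higher in sc and 2 in g (median -0.22). Without g286 WT, 7 were higher in sc. Slc25a1, the mitochondrial citrate carrier (1.51-fold, adjusted p = 0.000687), Me1, the cytosolic malic enzyme (1.48-fold, adjusted p = 0.000743), and Acacb, an acetyl-CoA carboxylase (1.38-fold, adjusted p = 0.0155), were higher in sc. Fads1, the delta-5 desaturase of polyunsaturated fatty acids, read 8.72, 8.65, 8.59, 8.78 and 8.44 in g and 7.34, 7.61, 7.33, 7.44 and 7.75 in sc. It went against the rest with a 2.21-fold excess in g (adjusted p = 6.99e-05). Elovl1, which elongates very long fatty acids, was 1.44-fold higher in g (adjusted p = 0.00465).

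Of 23 genes of brown and beige fat, the fat that burns fuel for heat, 7 were higher in sc and 1 in g (median -0.48). Ucp1, the mitochondrial uncoupling protein, read 8.96, 8.07, 8.11, 7.51 and 8.44 in sc and 7.39, 6.47, 4.71, 6.42 and 7.13 in g. The lowest sc array, 7.51, was just above the highest g array, 7.39, and g307 WT was far below the rest. The fold was 3.46 (difference -1.79, SE 0.46, adjusted p = 0.00878). Cidea, a lipid droplet protein of brown fat, was 2.52-fold higher in sc (7.52 ± 0.37 against 6.19 ± 0.14, adjusted p = 3.8e-05). Cox8b, a brown fat and muscle subunit of cytochrome oxidase, was 2.26-fold higher (adjusted p = 0.00857), and Cpt1b, the muscle and brown fat form of carnitine palmitoyltransferase, 1.94-fold (adjusted p = 0.00308). Both are also muscle genes and were highest on sc286WT and sc307WT, the arrays with muscle transcripts. Without the 4 arrays, Cpt1b stood at -0.59 (adjusted p = 0.0061) and Cox8b at -0.62 (adjusted p = 0.27). Prdm16, a driver of the brown fat programme, was 1.61-fold higher in sc (adjusted p = 0.00857), and Esrrg, an orphan nuclear receptor of oxidative tissue, 1.73-fold (adjusted p = 0.00238). Ebf2, which marks brown and beige precursors, was 1.44-fold higher in g (adjusted p = 0.0145). Without the 4 arrays, 3 of the 23 were higher in sc and 0 in g, and Ucp1 (-1.90, adjusted p = 0.0509), Prdm16 (-0.56, adjusted p = 0.0569) and Ebf2 (0.43, adjusted p = 0.195) were no longer called.

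The respiratory chain followed the same direction in small steps. Of 39 measured genes of oxidative phosphorylation, 33 were called, all 33 higher in sc, and all 39 differences were below 0, with a median of -0.35. At an unadjusted p under 0.05 there were 36 higher in sc and 0 higher in g. Cyc1, cytochrome c1 of complex III, read 7.49, 7.54, 7.71, 7.44 and 7.39 in sc and 7.13, 6.81, 6.74, 6.84 and 6.52 in g, a 1.63-fold difference with no overlap (adjusted p = 9.72e-05). The complex I genes Ndufa8 and Ndufv1 were 1.53-fold and 1.47-fold higher in sc (adjusted p = 0.000402 and 2.61e-05). Without the 4 arrays, 17 of the 39 were called, and the median was -0.32.

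Hormones and other secreted products of fat went both ways, with 5 of 26 higher in g and 6 in sc. Lcn2, for lipocalin-2, which binds bacterial siderophores, read 10.40, 10.14, 9.68, 11.20 and 10.09 in g and 7.995, 7.70, 7.93, 7.76 and 8.45 in sc. Every g array was above every sc array, 5.05-fold on average (difference 2.34, SE 0.43, adjusted p = 0.000672). Agt, for angiotensinogen, was 2.71-fold higher in g (8.22 ± 0.29 against 6.78 ± 0.27, adjusted p = 0.000344). Liver also makes both, and both were highest on g308 WT, the array with the most hepatocyte transcripts. Without the 4 arrays they stood at 2.00 and 1.33 (adjusted p = 0.037 and 0.018). Higher in sc were Nnat, a membrane proteolipid (2.03-fold, adjusted p = 0.000191), Vegfa, the endothelial growth factor (1.74-fold, adjusted p = 0.00207), Nrg4, a neuregulin secreted by fat (1.70-fold, adjusted p = 0.00362), and Retnla, a resistin-like protein of fat and macrophages (1.80-fold, adjusted p = 0.00341).

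Macrophage genes were higher in g. Of 32 measured markers, 24 were higher in g and 1, Retnla, was higher in sc, with a median of 1.28, and 24 were still higher in g without the 4 arrays. Adgre1, which encodes the macrophage marker F4/80, read 9.73, 9.43, 9.84, 9.32 and 9.97 in g and 7.36, 7.42, 7.83, 7.82 and 7.78 in sc. The groups were well apart, at 4.05-fold (difference 2.02, SE 0.23, adjusted p = 6.12e-06). Csf1r was 2.47-fold higher in g (10.60 ± 0.18 against 9.29 ± 0.12, adjusted p = 9.25e-07), and C1qa, a chain of complement C1q made by macrophages, 3.21-fold (adjusted p = 3.2e-06). Itgax, for the integrin CD11c of inflammatory macrophages and dendritic cells, was 5.84-fold higher (8.89 ± 0.35 against 6.34 ± 0.27, adjusted p = 0.000165). Trem2, a lipid-sensing receptor of fat macrophages, was 5.39-fold higher (10.43 ± 0.31 against 8.003 ± 0.37, adjusted p = 0.000112). Mrc1, for the mannose receptor CD206 of resident macrophages, differed less, at 1.73-fold (adjusted p = 9.73e-05).

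Other genes of myeloid cells stood among the 20 largest differences in g. Tlr13, which senses bacterial ribosomal RNA, was 6.27-fold higher (9.81 ± 0.34 against 7.16 ± 0.17, adjusted p = 1.95e-05). Lair1, an inhibitory collagen receptor of immune cells, was 6.11-fold higher (9.30 ± 0.47 against 6.69 ± 0.26, adjusted p = 9.42e-06). Ccl3, a chemokine that draws monocytes and T cells, read 8.99, 8.35, 9.03, 8.70 and 9.74 in g and 6.10, 6.42, 6.11, 6.19 and 6.44 in sc, a 6.55-fold excess (adjusted p = 3.47e-06). With the macrophage mean as a covariate, Lair1 and Itgax had differences of -0.08 and -0.10. Itgax is part of that mean, and the macrophage means of the depots do not overlap in wild type. That fit therefore has little to separate depot from macrophage level.

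Mast cell genes had the highest median among the lists, 1.53, and 11 of 13 were higher in g. Cpa3, the carboxypeptidase of mast cell granules, read 9.89, 9.63, 10.63, 9.66 and 10.26 in g and 7.57, 6.77, 6.98, 7.35 and 7.42 in sc, 6.94-fold apart without overlap (difference 2.80, SE 0.31, adjusted p = 3.81e-06). The granule protease genes Mcpt4 (4.45-fold, adjusted p = 0.000402) and Tpsb2 (4.44-fold, adjusted p = 6.48e-06), the IgE receptor chain gene Fcer1a (2.88-fold, adjusted p = 3.36e-05) and the receptor gene Mrgprb1 (4.73-fold, adjusted p = 3.7e-05) followed it. Hpgds, which makes prostaglandin D2 in mast cells and macrophages, was 5.94-fold higher (10.21 ± 0.25 against 7.64 ± 0.17, adjusted p = 1.15e-05). On the g arrays, Cpa3, Mcpt4, Tpsb2, Fcer1a and Mrgprb1 were all highest on g307 WT and next highest on g309 WT.

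Most called complement, cytokine and chemokine genes were higher in g. Of 19 complement genes, 11 were higher in g and 1 in sc (median 0.68). The C1q chain genes of this list, such as C1qa, are also on the macrophage list. C7, a late component of the membrane attack complex, read 11.00, 11.53, 10.96, 11.76 and 11.44 in g and 8.23, 8.74, 8.33, 8.97 and 9.12 in sc. With 6.32-fold between the depots and no overlap, its adjusted p was 2.35e-07. C3ar1, the receptor for the C3a fragment, was 4.45-fold higher (adjusted p = 6.48e-06). Cd59a, which blocks the membrane attack complex, was the gene higher in sc (1.68-fold, adjusted p = 0.00254). Of 30 cytokine and chemokine genes, 10 were higher in g and 2 in sc (median 0.52). Ccl9, a myeloid chemokine, was 2.61-fold higher in g (adjusted p = 7.3e-05) and the alarmin gene Il33 2.15-fold (adjusted p = 0.00275). Cxcl14, a chemokine of fat and skin, was 1.65-fold higher in sc (adjusted p = 0.0115). The other gene higher in sc lost its call without sc307WT, sc309WT, g308 WT or g309 WT.

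Of 21 lymphocyte markers, 1 was called, beside 17.8% of all genes, and their median was 0.18. Without sc286WT, which had by far the highest list mean, the median was 0.57, the g means of 5.85 to 6.84 lay above the sc means of 5.41 to 5.66, and still 1 was called. It was Il7r, the interleukin 7 receptor of lymphocytes and other lymphoid cells, which read 8.88, 8.63, 9.55, 8.66 and 9.09 in g and 8.52, 6.56, 6.92, 6.76 and 7.04 in sc. The sc286WT value lay with the g arrays. The difference was 1.80 (SE 0.59, adjusted p = 0.0383) and 2.14 without sc286WT (adjusted p = 0.0152), but the call was lost without any 1 of the 8 arrays other than sc286WT and g287 WT, at an adjusted p of up to 0.0947. Among genes of dendritic cells and antigen presentation, 4 of 19 were higher in g and 1 in sc (26.3%, beside 17.8% of all genes). Their median was 0.18, and all 4 higher in g were genes of MHC class II. H2-Ab1, a chain of MHC class II, was 1.81-fold higher in g (11.22 ± 0.23 against 10.36 ± 0.24, adjusted p = 0.00061). H2-M9, a non-classical MHC class I gene, fell by 1.81 in g to a dim level (adjusted p = 0.000127). Of 22 interferon-stimulated genes, 3 were higher in g and 2 in sc (22.7%, near the 17.8% of all genes), with a median of 0.06. Without g307 WT these counts were 1 and 1, and 1 was higher in sc without sc287WT, sc307WT, sc309WT, g286 WT or g308 WT.

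Genes of dividing cells were higher in g. Of 45 mitosis genes, 23 were called, all 23 higher in g, with a median of 0.57. At an unadjusted p under 0.05, 36 were higher in g and 0 higher in sc. Bub1, a kinase of the spindle checkpoint, read 6.13, 5.86, 6.24, 5.76 and 6.24 in g and 5.36, 4.64, 4.42, 4.30 and 4.50 in sc. The sc group was dim apart from sc286WT, and the difference was 1.40 (SE 0.26, adjusted p = 0.000773), or 1.58 without sc286WT. Ccna2, the cyclin of S phase and early mitosis, was 2.00-fold higher in g (7.28 ± 0.19 against 6.28 ± 0.30, adjusted p = 0.00128). Of 38 DNA replication genes, 15 were higher in g and 1, Orc6 of the origin recognition complex, in sc (-0.46, adjusted p = 0.013), with a median of 0.31. Pcna, the sliding clamp of DNA polymerase, read 10.09, 10.00, 10.50, 10.11 and 10.39 in g and 9.47, 9.28, 9.27, 9.37 and 9.45 in sc, 1.80-fold apart (adjusted p = 0.000448). Mcm6, part of the replicative helicase, was 1.90-fold higher in g (adjusted p = 0.000782).

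The mitosis count fell to 14 without sc307WT, to 15 without g286 WT and to 9 without the 4 arrays. The median without the 4 arrays was 0.59. The macrophage mean rose beside these genes. With it as a covariate, the medians of the mitosis and replication lists were -0.27 and -0.14, and none of either list was called. The differences of Bub1, Pcna and Mcm6 were then -0.28, -0.24 and -0.30. That fit called only 2 of all 19505 genes. The macrophage means of the depots do not overlap in wild type, so it has little to separate depot from macrophage level. Whether the dividing cells were macrophages, adipocyte precursors or others was not tested.

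Endothelial genes were higher in sc for 11 of 24 markers and higher in g for 1, with a median of -0.45. Without sc287WT, g307 WT or g309 WT the 11 became 5, and without sc309WT they became 6. Gpihbp1 read 8.98, 9.48, 8.98, 9.001 and 9.15 in sc and 8.19, 8.49, 7.41, 8.09 and 7.70 in g, 2.21-fold apart without overlap (adjusted p = 0.000961), and it is also on the adipocyte list. The gene higher in g was Mmrn1, for the secreted protein multimerin-1 of lymphatic endothelium and platelets, which rose by 1.87 from a dim sc group (adjusted p = 0.00133). Of 18 smooth muscle and pericyte genes, 6 were higher in sc and 0 in g, with 8 and 0 at an unadjusted p under 0.05 (median -0.45). The 12 not called hold the smooth muscle actin and myosin genes of the list. Rgs5, a pericyte regulator of G protein signalling, was 2.24-fold higher in sc (9.87 ± 0.19 against 8.71 ± 0.48, adjusted p = 0.000857).

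Genes of Schwann cells, the glia that wrap peripheral nerves, were higher in sc for 8 of 19 and higher in g for 2. The other 9 were not called, and the median of the 19 was -0.23. The 8 became 5 without sc307WT, sc308WT or g307 WT. Mbp, for myelin basic protein, read 7.22, 7.26, 7.43, 7.59 and 7.34 in sc and 6.30, 6.29, 6.28, 6.27 and 6.08 in g, 2.18-fold apart without overlap (adjusted p = 2.94e-05). S100b, a calcium-binding protein of glia and fat cells, was also 2.18-fold higher in sc (adjusted p = 0.000133). Ugt8a, which makes the galactolipids of myelin, was 3.08-fold higher (adjusted p = 7.19e-05), and Cdh19, a cadherin of the Schwann lineage, fell by 1.54 in g, where it was dim (adjusted p = 1.58e-06). The 2 genes higher in g were Egr2 (3.05-fold, adjusted p = 9.49e-05), a zinc finger factor of myelination and of activated macrophages, and Pmp22 (1.59-fold, adjusted p = 0.000112), a membrane protein of myelin and many other cells.

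Skeletal muscle transcripts made up part of the sc side. Of 22 markers 2 were called (9.09%, below the 17.8% of all genes). Both were higher in sc, the direction in which 8.48% of all genes were called. The median of the 22 was -1.93, and 18 had an unadjusted p under 0.05 by limma. Casq1, the calcium store protein of fast muscle, read 11.29, 6.88, 8.96, 6.96 and 7.16 in sc and 6.03, 6.07, 5.40, 6.26 and 5.90 in g. The values of sc286WT and sc307WT were far above the other 3, which were still above all g arrays. Casq1 differed by -2.32 (SE 0.58, adjusted p = 0.00794), by -1.56 without sc286WT and by -1.21 without the 4 arrays (adjusted p = 0.016). Myl1, a fast muscle myosin light chain, had the same pattern at -2.14 (SE 0.48, adjusted p = 0.00343), -1.55 without sc286WT and -1.12 without the 4 arrays (adjusted p = 0.0027). Mlip, a lamin-binding protein of heart and muscle, differed by -1.80 (adjusted p = 0.000638) and by -1.08 without the 4 arrays. The muscle genes Xirp2, Smpx and Pgam2 differed by -1.71, -1.81 and -1.501 (adjusted p = 0.0398, 0.0418 and 0.0398), and by -0.91, -0.99 and -0.84 without sc286WT. Each of these 3 lost its call without sc307WT or any 1 of the 5 g arrays, at an adjusted p of up to 0.104, and the g group of Xirp2, Smpx and Mlip was dim. More muscle markers were called when an array low in them was left out: 7 without sc287WT, 11 without sc308WT and 15 without sc309WT. The median of the 22 was -0.90 without sc286WT and -0.25 without the 4 arrays. Hepatocyte markers had a median of 1.20, or -0.07 without the 4 arrays, and none of 18 was called by limma, with 1 at an unadjusted p under 0.05.

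Among the remaining large differences on the sc side were 2 imprinted neighbours. Peg3, a zinc finger gene expressed from the paternal copy, read 8.62, 9.36, 9.26, 9.06 and 9.21 in sc and 7.48, 7.94, 7.45, 7.41 and 7.28 in g, 3.01-fold apart without overlap (adjusted p = 0.000774). Zim1, a maternally expressed zinc finger gene beside it, was 4.25-fold higher in sc (7.26 ± 0.23 against 5.17 ± 0.39, adjusted p = 0.000415). Grb14, an adaptor that inhibits the insulin receptor, was 3.23-fold higher in sc (8.25 ± 0.30 against 6.56 ± 0.21, adjusted p = 4.32e-06). Fbxo27, an F-box protein that recognises glycoproteins, was 2.88-fold higher (adjusted p = 0.000468). Chrm4, a muscarinic acetylcholine receptor, and Rpl39l, a ribosomal protein L39 copy, fell by 1.61 and 1.96 in g to dim levels (adjusted p = 0.000103 and 3.89e-06). Rpl39l closely resembles its parent gene, and its probes may share signal with it.

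Progenitor, hormone and some metabolic lists were called in both directions. Of 24 fibroblast and progenitor markers, 5 were higher in g and 5 in sc (41.7%, beside 17.8% of all genes), with a median of 0.00. Ebf3, a transcription factor of fat and bone marrow stroma, was 2.04-fold higher in sc (8.25 ± 0.10 against 7.23 ± 0.17, adjusted p = 6.41e-06), while Mfap5, a microfibril protein (1.55-fold, adjusted p = 0.00531), and Clec11a, a bone growth factor of stroma (1.54-fold, adjusted p = 0.00264), were higher in g. Of 22 genes of retinoid metabolism, 3 were higher in g and 4 in sc (31.8%). All 3 in g make retinal or retinoic acid: Dhrs9, which read 7.57, 7.34, 8.19, 7.09 and 7.73 in g against 4.48 to 5.34 in sc (6.42-fold, adjusted p = 4.36e-05), Aldh1a2 as above, and Aldh1a3 (2.35-fold, adjusted p = 5.03e-06). On the sc side were Rbp7, a retinol-binding protein of fat and endothelium (1.70-fold, adjusted p = 0.00538), and the retinol dehydrogenase gene Adh7, which fell by 0.95 in g to a dim level (adjusted p = 0.000307). Of 15 steroid genes, 2 were higher in g and 3 in sc (33.3%), with 1 in g without sc286WT, sc307WT, g287 WT or g309 WT. Akr1c18, which inactivates progesterone, fell by 1.45 in g to a dim level (adjusted p = 0.0014), and Hsd11b1, which regenerates active glucocorticoid, was 1.61-fold higher in sc (adjusted p = 0.000393). Of 18 cholesterol synthesis genes, 3 were called in each direction (33.3%). Of 24 immediate early genes, 5 were higher in g and 2 in sc (29.2%, beside 17.8% of all genes), with a median of 0.14. Atf3, a stress-induced transcription factor, was 3.79-fold higher in g (9.22 ± 0.30 against 7.30 ± 0.18, adjusted p = 4.34e-05). The 2 immediate early genes in sc were both lost without sc307WT or g309 WT, and 1 of them without sc286WT, sc287WT, sc309WT, g286 WT or g307 WT.

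**Figure D4:**
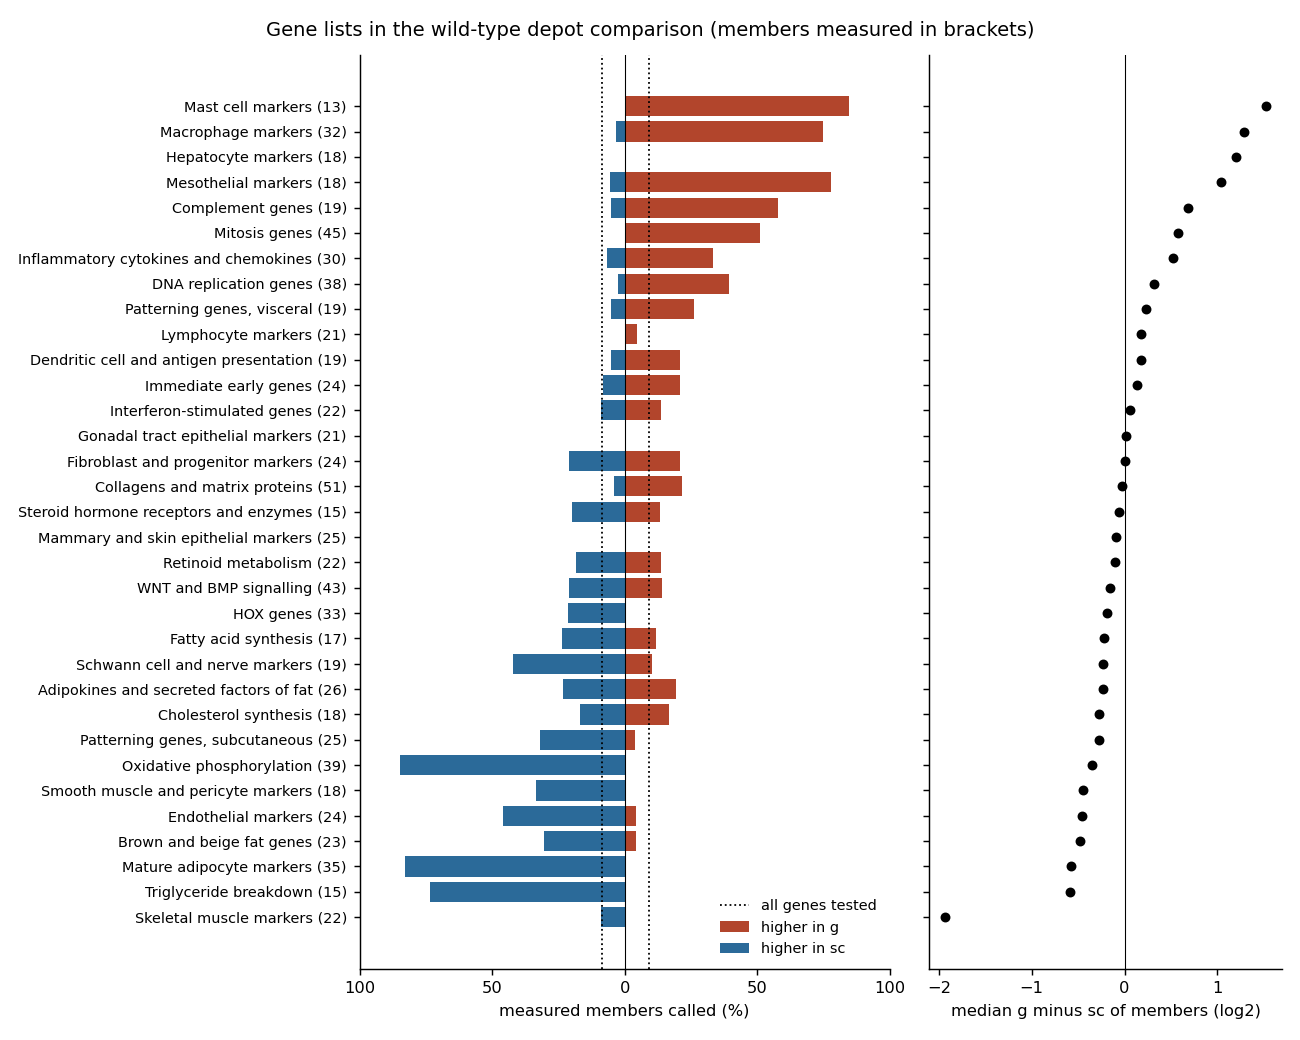
Gene lists with at least 10 measured members, ordered by median difference. Left, percent of measured members called higher in g (red, to the right) and higher in sc (blue, to the left), with dotted lines at 9.3% and 8.48%, the shares over all genes; right, the median g minus sc difference of the members (log2). Mast cell, macrophage, hepatocyte and mesothelial lists have the highest medians, and skeletal muscle, triglyceride breakdown and adipocyte lists the lowest. The hepatocyte list has no called member.

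The knockout arrays, which the wild-type comparison did not use for its means, gave a second reading of the depots. In Olfm2 knockout, 806 of 19505 genes were called between g and sc (4.13%), 559 higher in g and 247 higher in sc. Of these, 609 were also called in wild type, 608 of them in the same direction, which is 75.6% of the knockout calls and 17.6% of the wild-type calls. Of the 3468 wild-type calls, 3061 (88.3%) had the same sign in knockout, where their median size in the wild-type direction was 0.20. The share of all genes with the same sign is not given here. How far the 88.3% is particular to called genes therefore cannot be told. Large differences of patterning genes were seen again: Tbx15 differed by -2.52 in knockout, Shox2 by -2.61, Hoxc10 by -2.19, Hoxa10 by -1.87, Tcf21 by 1.89 and Wt1 by 1.35. Of the HOX list 2 of 33 were called higher in g and 4 in sc, the median was 0.03, and 18 of the 33 had the sign of wild type. Of the mesothelial markers 14 of 18 were called higher in g, with Upk3b at 4.34. Macrophage markers were called higher in g for 17 of 32, with a median of 0.68. For other lists the knockout counts were low, beside a share of 4.13% over all genes. Of the adipocyte markers 1 of 35 was called, higher in sc (median -0.19), and of the oxidative phosphorylation genes 2 of 39. Of the mitosis genes 1 of 45 was called and of the mast cell markers 1 of 13. At an unadjusted p under 0.05 by limma these counts were 13, 18, 4 and 3, beside 3339 of all 19505 genes. In the same order, 29, 38, 32 and 11 members kept the sign of wild type. Cpa3 differed by 0.87 in knockout (adjusted p = 0.13) and Adipoq by -0.17 (adjusted p = 0.31). The hepatocyte mean ranged from 5.30 to 9.98 on the knockout sc arrays and from 5.67 to 10.42 on the knockout g arrays, the lymphocyte mean was 8.35 on sc317KO and 8.05 on sc320KO against 5.31 to 6.02 on the other 8, and the muscle mean was 7.37 and 6.92 on the same arrays. The knockout count was 677 when the fit held the hepatocyte mean and 908 when it held the hepatocyte, lymphocyte and muscle means.

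The difference of the differences was tested for each gene. It passed for 15 genes (0.0769%), and 2537 genes had an unadjusted p under 0.05 in limma. Of the genes named here, 11 were chosen after their values were seen, because they passed this test (the remaining one is an olfactory receptor gene, passed over by name): Fgf9, Gpr176, Fat3, Nfasc, Myh15, Orm3, Hspb8, Mgl2, Gna13, Disp2 and Cadps. Klb and Retn, higher in sc in wild type, were at 0.08 and -0.19 in knockout, and the change was 1.24 (SE 0.20) and 1.06 (SE 0.18). Both also belong to the adipocyte list, of which 18 of 35 had an unadjusted p under 0.05 in this test. Fgf9, a fibroblast growth factor, went from -0.90 to 0.52, a change of 1.43 (SE 0.23). Hspb8, a small heat shock protein, and Mgl2, a macrophage lectin, went from -1.03 and -0.80 to 0.04 and 0.01. In the other direction, Fat3, a giant cadherin, went from 1.33 to -0.01, Gpr176, an orphan receptor, from 1.15 to 0.02, and Nfasc, the adhesion molecule neurofascin, from 1.05 to -0.10. Myh15, a myosin heavy chain, went from 2.41 to 0.63, Gna13, a G protein subunit, from 0.75 to 0.11, and Col6a5 from 3.64 to 2.63. Cadps, a protein of vesicle release, went from 0.49 to 1.71. Orm3 and Disp2, an acute phase gene and a relative of the Hedgehog exporter, were not called in wild type and were at 1.32 and 1.14 in knockout, and both groups of each were dim in wild type. The sc group of Fat3, Myh15 and Cadps was dim as well.

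Adjusted p values of this test ran close to the threshold. The count was 4 without sc307WT, 24 without g308 WT and 41 without sc286WT. Under leave-one-out, Fat3, Gpr176, Nfasc and Orm3 passed each time. Fgf9, Klb, Hspb8, Gna13 and Cadps were lost only without sc307WT, at an adjusted p of up to 0.0564. Col6a5 passed only without sc286WT, Disp2 only without sc286WT or g287 WT, and Mgl2 only without sc286WT, g286 WT or g309 WT. Retn was lost without sc287WT, sc307WT, sc308WT or g307 WT, and Myh15 without sc287WT, sc307WT, g286 WT or g307 WT. The wild-type call of Cadps was itself lost without sc287WT, sc309WT or any g array but g286 WT, at an adjusted p of up to 0.0651.

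**Figure D5:**
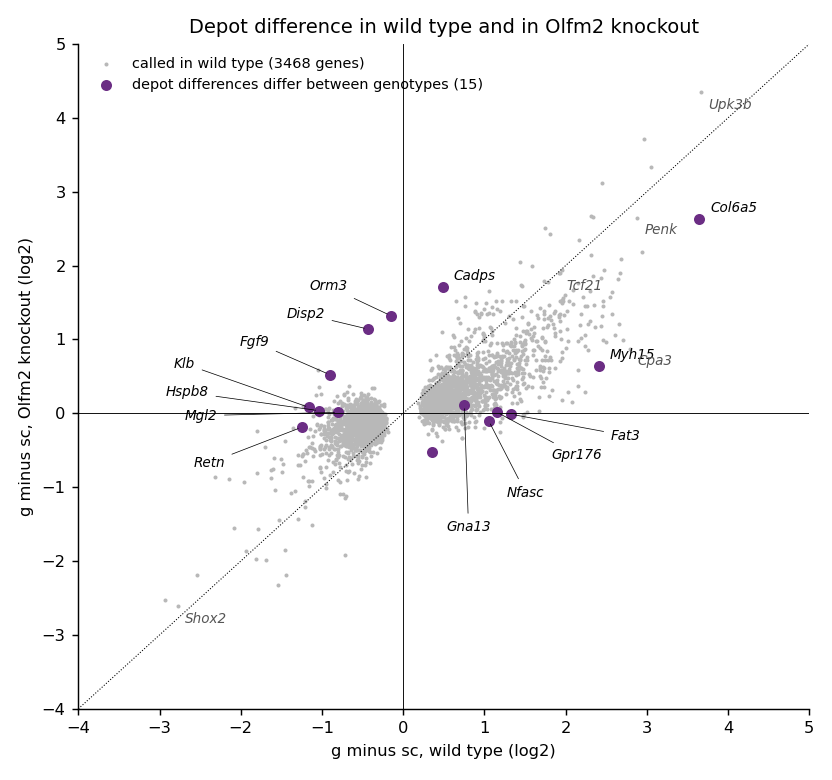
Depot difference of the 3468 genes called in wild type (grey), g minus sc in wild type on the x axis and in Olfm2 knockout on the y axis (both log2), with the 15 genes whose difference differed between genotypes in purple and the dotted line at equal values. Upk3b, Tcf21, Penk and Shox2 lie near the line, and Klb, Hspb8, Mgl2, Fat3, Gpr176 and Nfasc near a knockout difference of 0.

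Olfm2, the secreted glycoprotein gene that gives the series its theme, read 4.28, 5.25, 5.02, 5.21 and 4.62 in sc and 4.30, 4.60, 4.08, 4.54 and 4.17 in g of wild type. The arrays overlapped and the g group was dim. The difference of -0.54 (SE 0.19) missed the threshold (adjusted p = 0.0506), and without sc286WT it was -0.69 (adjusted p = 0.0083).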

How the data were processed

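RNA of 20 samples, labelled as adipocytes, was hybridised to Affymetrix arrays after labelling with the GeneChip WT PLUS kit, per the labels' protocols. The deposited table holds log2 values made by the authors with RMA, per the submitters' processing notes (the notes give no version). Of 28846 probes, 6640 control probes were left out and 19572 had 1 gene symbol. The brightest probe stood for each of 55 genes with several, which left 19505 genes. No further normalization was applied. One limma model (version 3.58.1 in R 4.3.3) with 4 group means over all 20 arrays (16 residual degrees of freedom) gave g minus sc in wild type, the same in knockout, and the difference of both, with Benjamini-Hochberg adjustment over all genes. The fit was tested on simulated data.

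Named genes were, by rule, the 20 largest called differences in each direction whose arrays did not overlap, passing over unnamed models and receptor families, and could be called members of 35 gene lists, the 3 smallest p of a list with none called, and Olfm2. Of 336 called genes the rule allows, 193 are not named. Of these, 13 were taken out after their values were seen, and none of the 13 was called under every leave-one-out. Members and lists were chosen with earlier results of these data known, and 5 further lists after the values were seen. The block by title number was checked first: deviations of same-numbered arrays correlated at -0.0935 to 0.142 (median 0.0814), so the numbers were not used to pair arrays. The number of arrays, 5 per group, limits the precision. Alternatives were 26 other settings.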

Additional observations from a re-analysis of the deposited data

Results flagged for a closer look

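Stray arrays, whose gap to the next value was large for a group of 5, were sought for 190 genes and lists in both depots, 380 groups in all, and 31 were found; chance gives about 1 in 20. Array sc286WT accounted for most. It was high for Tbx15 (8.664, next 6.716), Mlip (8.177, next 6.244), Il33 (7.412, next 7.054) and Il7r (8.515, next 7.037). It was low for Pianp (5.974, next 6.199), Lhx8 (7.514, next 7.95), Fbln1 (5.869, next 6.807), Ebf2 (6.881, next 7.27) and Hsd11b1 (9.166, next 9.495). It was also low for the fat cell genes Pparg (10.76, next 11.07), Adipoq (12.47, next 12.7), Plin1 (10.92, next 11.38) and Lipe (11.56, next 11.83).

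The list means of sc286WT stood apart in the same way. They were low for triglyceride breakdown (9.731), adipokines (8.984), matrix proteins (7.826) and cholesterol synthesis (8.154), and high for lymphocyte markers (7.978), antigen presentation (8.468) and cytokines and chemokines (7.104). Array sc307WT was high for Rnf128 (6.34, next 5.743), Cidea (8.165, next 7.454) and the oxidative phosphorylation mean (9.58, next 9.4), and sc287WT was low for Nfasc (5.141, next 5.463).

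In g, g286 WT was low for Wnt2b (6.345, next 6.829) and Cadps (4.345, next 4.91) and high for Plin5 (5.641, next 5.284). Irx3 was high on g287 WT (6.843, next 6.371), Clec11a on g307 WT (6.929, next 6.617) and the cytokine and chemokine mean on g309 WT (7.927, next 7.227), while Mbp was low on g309 WT (6.084, next 6.266).

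The depot difference differed between genotypes, by limma's test of the difference itself, for 14 named genes. As knockout minus wild type, it was higher for Disp2 (1.577), Orm3 (1.479), Fgf9 (1.428), Klb (1.236), Cadps (1.219), Hspb8 (1.069), Retn (1.062) and Mgl2 (0.8143). It was lower for Gna13 (-0.6409), Col6a5 (-1.018), Gpr176 (-1.137), Nfasc (-1.153), Fat3 (-1.347) and Myh15 (-1.771).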

How the results depend on the processing

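Of the 3468 called genes, 2325 stayed called when any 1 array was left out and 1682 under all 22 alternatives without a covariate, in those where they were tested. Of the 336 the naming rule allows, these were 267 and 218. Genes named here are steadier than that, since 13 that lost their call without 1 array were taken out after their values were seen. Col6a5 and Penk were called under all 26 settings. Every called gene kept its sign in each setting without a covariate that tested it (3260 of the 3468 without the dimmest genes, 3350 without genes under the control median). Leaving out 1 wild-type array gave 2663 to 3770 calls. Without sc286WT, sc307WT, g286 WT and g308 WT, 2103 were called (1168 higher in g, 935 in sc). Array weights gave 2711 higher in sc. With hepatocyte, lymphocyte and muscle means as covariates 1458 were called (968 in g, 490 in sc), and with the mesothelial mean 2111 (798 in sc, and 301 in knockout). With the macrophage mean, an alternative chosen after seeing the data, 2 were called (2 in g, 0 in sc, 2468 at an unadjusted p under 0.05 by limma, and 246 in knockout).

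The share of calls higher in g was 52.3%, and 66.4% with the 3 covariates, 62.2% with the mesothelial mean and 100% (of 2) with the macrophage mean. The replicate block by title number gave 3931 calls as a random term and 3315 as a fixed term. Of the 5 wild-type numbers, 2 matched their own best.

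The test between genotypes called 15 genes, 4 to 41 when 1 array was left out, 32 with the random replicate block, 28 with trend and robust, 30 with array weights, 2 without g286 WT and g308 WT, 6 without sc286WT and sc307WT, 2 without all 4, 1 with 3 covariates and 0 with the macrophage mean.

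With the macrophage mean, g minus sc turned for Lair1 (-0.076), Itgax (-0.10), Glipr1 (-1.20), Sox6 (0.063), Hoxc9 (0.53), Cldn15 (0.36), Apcdd1 (0.10), Pnpla2 (0.070), H2-Ab1 (-0.20), Bub1 (-0.28), Pcna (-0.24), Mcm6 (-0.30), Gpihbp1 (0.054) and Il7r (-2.58). Itgax is itself on the macrophage list. With the mesothelial mean it turned for Osr1 (-0.027), Isl1 (-0.025), Nkain4 (-0.44), Lrrn4 (-0.22), Msln (-0.51), Wnt2b (-0.13), Rspo1 (-0.074) and Cxcl14 (0.013), of which Nkain4, Lrrn4, Msln and Rspo1 are on that list. Neither mean overlaps between depots, so these fits hardly separate it from depot. The cause was not tested. Of the called genes, 271 had a lower group mean under the negative control median, where signal over background limits the fold.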

Other observations

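Gene lists chosen after the values were seen add the following counts, which support nothing by themselves. Of 19 enzymes that break down branched-chain amino acids, a fuel of fat cells, 15 were called higher in sc and 0 in g, with 16 and 0 at an unadjusted p under 0.05 by limma and a median of -0.51. Of 20 genes of fatty acid oxidation, 16 were higher in sc and 0 in g, with 18 and 0 unadjusted and a median of -0.43. Of 21 genes of insulin signalling and glucose uptake, 10 were higher in sc and 3 in g (median -0.39).

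Of 22 genes of lipid-associated macrophages, the Trem2-bearing macrophages of obese fat, 16 were higher in g and 0 in sc, with 18 and 0 unadjusted and a median of 1.37. In knockout 12 of the 22 were called higher in g. Of 27 imprinted genes, 6 were higher in sc and 2 in g (median -0.16), and the 6 became 3 without g309 WT. Of 2634 probes without a gene name here, 319 were called, 136 higher in g and 183 higher in sc.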
